A study of Mus musculus with 109 samples.

Results

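The genes described here are the receptors, co-receptors and transcription factors of the Sonic hedgehog (SHH) pathway, Ptch1, Smo, Boc, Gas1, Cdon, Gli1, Gli2, Gli3 and Sufu. They were chosen by symbol, and 8 of the 9 are among the 15973 genes of the deposited table. Cdon, a co-receptor, has no row in it and was not analysed here. The data are single-cell RNA-seq of 109 cells from cerebella of C57BL/6 mice at P7, labelled as granule precursor cells and enriched on a Percoll density gradient. Each cell was captured on a C1 Fluidigm chip and read as its own Smart-seq library. The mice carry no named allele and received no named treatment, and the labels name no animal, so the cells are tied only to 6 library groups of 18 or 19 cells each. Total counts per cell ran from 15071 to 8616017 (median 3604792).

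The classes used here were set by 2 marker genes on CPM, the count of a gene per 1000000 counts of the cell. Cells with Mki67 (encoding KI67, present in cycling cells) at 100 CPM or more were called Mki67-high (32 cells), and those under 10 CPM were called Mki67-low (75 cells). The values nearest to these limits were 132 CPM above the upper one and 9.27 CPM below the lower one, and 2 cells at 66.4 and 21.3 CPM lay between. Every cell had a Dcx count (doublecortin, a microtubule protein of young neurons), and 9 cells under 10 CPM were called Dcx-low, 83 at 100 CPM or more Dcx-high, and 17 Dcx-between. Dcx-low cells numbered 3, 1, 1, 1, 2 and 1 in library groups 1 to 6, so that most of their sums stand for a single cell. Of the Dcx-low cells, 4 were also Mki67-high, as were 9 of the Dcx-between and 19 of the Dcx-high cells.

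Of 6 granule lineage genes looked up, Neurod1 had a count in 109 cells, Zic1 in 108, Pax6 in 106 and Meis1 in 106. Zic2 had one in 28 of 32 Mki67-high and 59 of 75 Mki67-low cells, and Barhl1 in 22 and 45. A single count is enough here, and Zic1 was at only 0.677 CPM in the Dcx-low cell of library group 6. Genes of other cell types were high in 17 cells, by limits chosen after the values were seen. Of these, 5 cells carried at least 6 of 12 astroglial genes at 50 CPM or more, 6 carried at least 3 of 7 oligodendrocyte lineage genes and 8 carried at least 2 of 5 GABAergic interneuron genes. There were 5 such cells among the Mki67-high, 12 among the Mki67-low and 3 among the Dcx-low cells. Depth was unusual in 3 cells, one with 15071 counts and 2 with 13533 and 12684 detected genes, where no other cell exceeded 6420.

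SHH reaches the external granule layer from Purkinje cells and is the main mitogen of granule cell progenitors (GCPs). PTCH1 is its receptor and, without ligand, holds the transducer SMO inactive. BOC, GAS1 and CDON bind SHH beside PTCH1 as co-receptors. Active SMO releases the GLI transcription factors from SUFU, a cytoplasmic protein that restrains them. GLI2 acts mostly as the activator, GLI3 mostly as a repressor, and Gli1 is itself a target and a common readout of the pathway, as is Ptch1.

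To show regulatory sequence of the family, promoter windows of RefSeq (GRCm38.p6) from 250 bases before to 50 bases after a start site were read. They were held for 7 of the 9 genes, not for Gli1 and Boc. The GLI motif GACCACCCA (TGGGTGGTC on the other strand) was in 0 of the 7 windows, and in 83 of all 32851 windows (0.253%). Its inner letters CCACCC were then searched on both strands, after the first result was seen. They were found in the windows of Smo, Gli2 and Gli3, and in 31.5% of all windows. The windows of Gli2, which held it at 2 places, and of Sufu, which held none, are given, the latter as the promoter of the gene with the lowest fold changes in both comparisons that follow. Capitals mark this inner motif on either strand.
Gli2 (chr1:119053570-119053869, minus strand): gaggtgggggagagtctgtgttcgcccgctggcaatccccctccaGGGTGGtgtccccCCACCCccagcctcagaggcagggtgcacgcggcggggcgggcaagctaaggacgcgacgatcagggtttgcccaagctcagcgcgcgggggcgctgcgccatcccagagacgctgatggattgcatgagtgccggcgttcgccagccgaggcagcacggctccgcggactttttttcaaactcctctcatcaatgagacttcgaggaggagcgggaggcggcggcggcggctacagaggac
Sufu (chr19:46396646-46396945, plus strand): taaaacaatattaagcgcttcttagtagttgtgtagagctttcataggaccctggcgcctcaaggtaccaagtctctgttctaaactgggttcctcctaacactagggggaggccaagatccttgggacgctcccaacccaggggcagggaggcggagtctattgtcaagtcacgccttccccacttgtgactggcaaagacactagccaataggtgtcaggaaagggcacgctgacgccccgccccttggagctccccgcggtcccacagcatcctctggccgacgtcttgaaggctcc
G and C made up 67.3% of the Gli2 window and 56.3% of the Sufu window, against a median of 52.7% over all windows. A match or its absence describes these windows alone.

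Sufu was found in the most cells, with at least 1 count in 62 of 109 (56.9%, Wilson 95% interval 47.5 to 65.8), followed by Ptch1 in 58 (53.2%, 43.9 to 62.3). Boc had a count in 50 cells, Gli2 in 49, Smo in 40, Gas1 in 38, Gli3 in 27 and Gli1 in 19 (17.4%, 11.5 to 25.6). Intervals like these take the cells as independent and cover the sampling of cells only. They leave out the spread between library groups, and reads were counted without molecular identifiers. At a minimum of 5 counts the order changed, with Ptch1 in 38 cells, Sufu in 36, Gli2 in 25, Boc in 24, Smo in 22, Gas1 in 22, Gli1 in 12 and Gli3 in 10. Median members with at least 1 count per cell were 3 of the 8, and 3 cells had none.

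Low counts of Smo, Gli1, Gli2 and Gli3 were more frequent in library groups where another cell held 100 counts or more of the gene. In such groups 27.1%, 9.09%, 30.7% and 20.5% of the cells with fewer than 100 counts had a value of 1 to 4. In the other groups the shares were 5.41%, 2.78%, 5.56% and 0%. Every group held such a cell for Ptch1, Boc, Gas1 and Sufu, which allow no such contrast. For Gli2 and for Gli3 the other groups held only 18 cells. With the genes that allow no contrast included, 150 of 646 values under 100 counts in such groups were 1 to 4 (23.2%). Elsewhere 4 of 109 values were (3.67%). Shares at a minimum of 5 counts were therefore computed beside those at 1 count, the setting chosen first.

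Per kilobase of merged exons (GENCODE M21), mean levels over all cells were 20.6 CPM for Sufu, 16.5 for Gli2, 9.20 for Boc, 8.24 for Gas1, 6.69 for Smo, 6.06 for Gli3, 3.37 for Ptch1 and 2.33 for Gli1. Over the 6 library groups, Sufu ran from 0.544 to 32.6 CPM per kilobase and Ptch1 from 2.01 to 5.56. None of the 7 neighbouring pairs in this order differed beyond the spread of the library groups (exact two-sided sign-flip tests, p = 0.46875 to 0.9375). The levels rested on few cells. The cell with the most held 47.4% of all CPM of Gli2, 40.7% of Boc, 39.1% of Gli1, 33.0% of Gli3, 29.6% of Smo, 27.9% of Gas1, 19.5% of Sufu and 17.9% of Ptch1. Ptch1, although lower per length than most, was thus spread over the most cells at 5 counts.

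**Figure D1:**
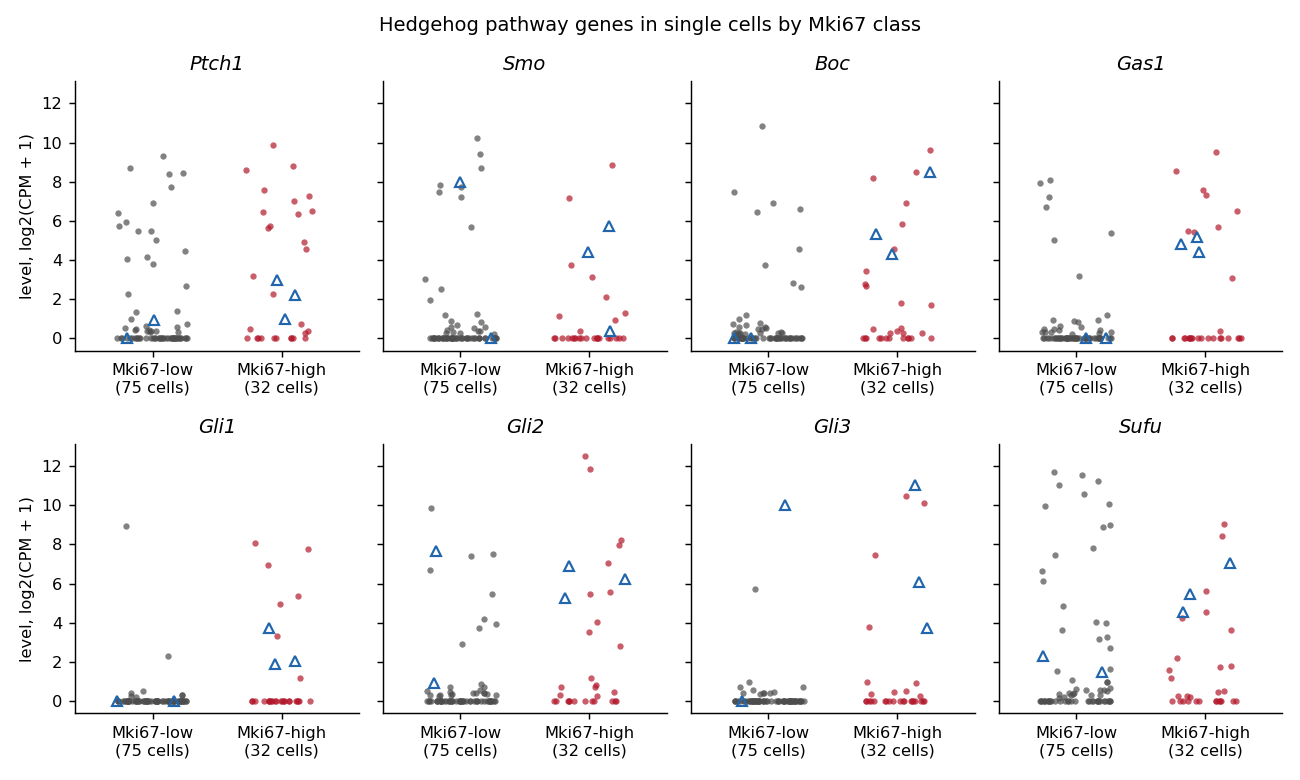
Level of each gene as log2(CPM + 1) (y axis) in the 75 Mki67-low and 32 Mki67-high cells (x axis, points spread sideways at random). Each point is a cell and open triangles are the 5 cells carrying astroglial genes; most values are at or near 0, and Gli1 and Gli3 with 5 or more counts were found in 2 Mki67-low cells each.

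The first comparison asked whether Mki67-high cells of the preparation carried more of the SHH receiving machinery than Mki67-low ones. The Mki67-low class was not free of other progenitor genes. Top2a had a count in 67 of its 75 cells and Pcna in 48. In sums Top2a was at 154 ± 195 CPM, against 1598 ± 996 CPM in Mki67-high cells (SD, n = 6 sums). The clearest values were in the share of cells with at least 5 counts. Ptch1, Boc and Gas1 each had a higher share in Mki67-high than in Mki67-low cells in 6 of 6 library groups, while Gli1 and Gli3 did so in 5 of 6. Sufu and Smo did so in 4 of 6. In summed levels Gli3, Gas1 and Gli2 had the highest positive differences and Sufu the lowest, and no difference passed the test over all genes. Mki67-high cells had more detected genes (median 4967 against 4193), and 80.3% of all genes had a higher share at 5 counts in them, with a median difference of 5.56 percentage points.

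Ptch1 (chromosome 13, 63508328 to 63573598, minus strand) had at least 5 counts in 18 of 32 Mki67-high cells (56.3%, Wilson 95% interval 39.3 to 71.8) and in 19 of 75 Mki67-low cells (25.3%, 16.9 to 36.2). By library group the share ran from 33.3% to 75% (median 55.0%) in Mki67-high and from 10% to 41.7% (median 26.5%) in Mki67-low cells. The ranges overlap, but the class order was the same in 6 of 6 groups, with a mean difference of 29.9 ± 13.7 percentage points (SD, n = 6 groups, exact two-sided sign-flip test, p = 0.03125 and, adjusted over 14593 genes, 0.5595). With 6 groups this p-value cannot be smaller. A share higher in 6 of 6 groups was found for 5.01% of all genes, and for 3 of these 8. At a minimum of 1 count Ptch1 was found in 22 and 34 cells, higher in 4 of 6 groups (same exact test, p = 0.125). In the sums of each class and group, Ptch1 ran from 15.6 to 183 CPM (median 73.2) in Mki67-high and from 8.54 to 59.4 CPM (median 38.4) in Mki67-low cells. In edgeR's quasi-likelihood test this was 1.24 on the log2 scale (SE, the standard error of the fit, 1.09), with an adjusted p = 0.836.

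Smo (chromosome 6, 29735503 to 29761365, plus strand), the signal transducer, had at least 5 counts in 8 Mki67-high and 13 Mki67-low cells. Its share was higher in 4 of 6 library groups, by 8.62 ± 24.8 points (SD, n = 6 groups, exact two-sided sign-flip test, p = 0.5). With 1 count it was found in 12 and 27 cells, higher in 2 of 6 groups and lower in 4. In the sums it ran from 0 to 67.9 CPM (median 10.4) in Mki67-high and from 0 to 308 CPM (median 26.7) in Mki67-low cells, so the classes overlapped throughout. The log2 fold change was -1.76 (SE 1.96, adjusted p = 0.878 in edgeR), and it was 0.29 without library group 4, -2.47 without group 5 and -2.37 without group 6. The cell with the highest Smo level, 1212 CPM, was a Mki67-low cell of library group 4 that also had 3 of 5 interneuron genes at 50 CPM or more. A processed pseudogene, Gm13717, lies within Smo on the same strand and outside its exons.

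Among the co-receptors, Boc (chromosome 16, 44485049 to 44558897, minus strand) had at least 5 counts in 14 of 32 Mki67-high cells (43.8%, Wilson 95% interval 28.2 to 60.7) and in 9 of 75 Mki67-low cells (12%, 6.44 to 21.3). The share per library group ran from 25.0% to 66.7% (median 43.8%) against 0% to 20% (median 11.7%). The ranges of the classes did not overlap, as was the case for 1.71% of all genes, and the mean difference was 32.8 ± 22.4 points (SD, n = 6 groups, exact two-sided sign-flip test, p = 0.03125, adjusted p = 0.5595). With 1 count Boc was found in 20 and 29 cells, higher in 5 of 6 groups (exact two-sided sign-flip test, p = 0.125). In summed levels Boc was higher in 4 of 6 groups only, at 1.4 on the log2 scale (SE 1.55, adjusted p = 0.878 in edgeR). This value rested on 1 Mki67-low cell of library group 6 with 1814 CPM. Without that cell it was 3.51 (SE 1.59, adjusted p = 0.666 in edgeR), and it was -0.084 without library group 4 and 3.59 without group 6.

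Gas1 (chromosome 13, 60174405 to 60177365, minus strand) had at least 5 counts in 12 Mki67-high (37.5%, Wilson 95% interval 22.9 to 54.8) and 9 Mki67-low cells (12%, 6.44 to 21.3). Its share ran from 25.0% to 60.0% (median 35.4%) in Mki67-high and from 0% to 25.0% (median 11.03%) in Mki67-low cells, which touch at 25.0%. The mean difference was 27.3 ± 13.5 points (SD, n = 6 groups, exact two-sided sign-flip test, p = 0.03125, adjusted p = 0.5595). The order was less steady with 1 count, at which Gas1 was found in 13 (40.6%) and 24 cells (32.0%), higher in 3 of 6 groups and lower in 2, by 12.96 ± 33.3 points (exact two-sided sign-flip test, n = 6 groups, p = 0.4375). Gas1 sums ran from 8.62 to 277 CPM (median 61.9) in Mki67-high and from 0 to 50.4 CPM (median 1.69) in Mki67-low cells. They were higher in Mki67-high cells in 6 of 6 groups, as were the sums of 2.19% of the genes tested. The log2 fold change was 3.14 (SE 1.87, adjusted p = 0.738 in edgeR), and it was 4.85 without library group 3 and 2.55 without group 4. It was 6.34 in edgeR with library groups as a block (adjusted p = 0.615) and 5.39 with limma-voom (adjusted p = 0.334). Exons of Gas1 overlap those of Gm48488 on the other strand, and the strand setting of the counting is not given in the sources used here.

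**Figure D2:**
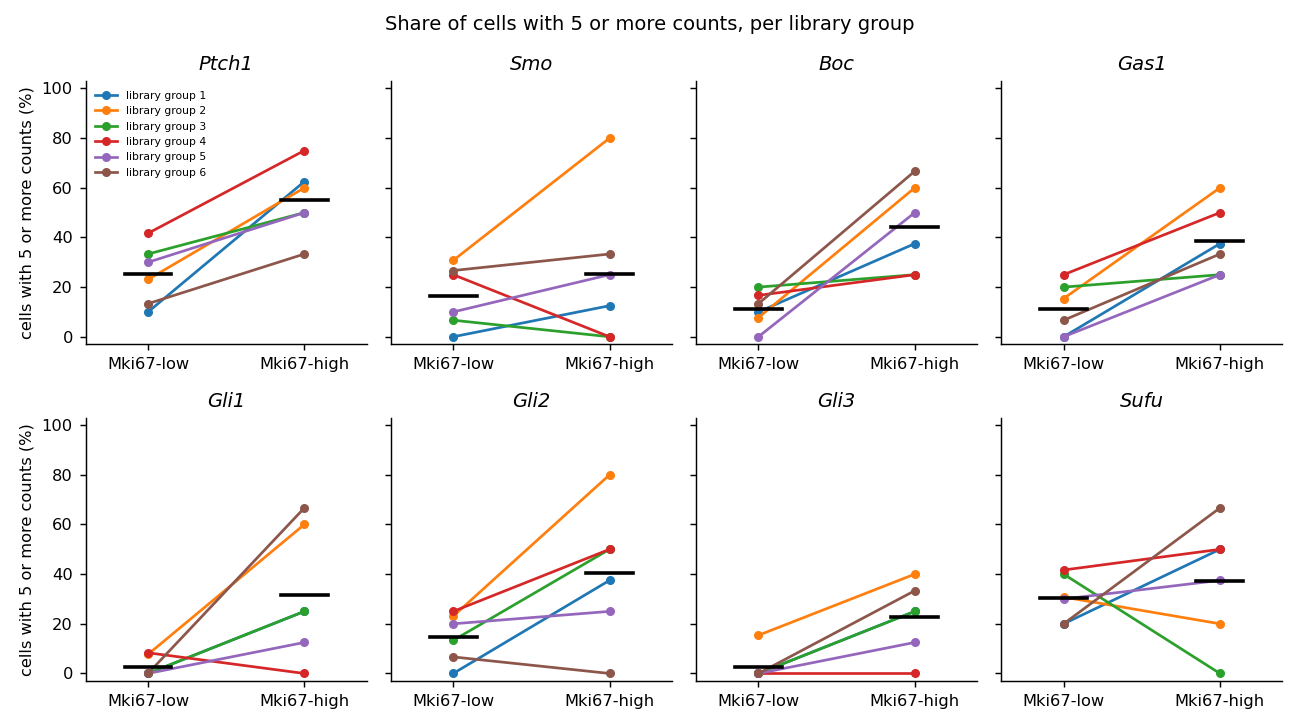
Percentage of cells with 5 or more counts (y axis) in the Mki67-low and Mki67-high cells of each library group (x axis, one coloured line per library group, black bars are means of the 6 groups). For Ptch1, Boc and Gas1 all 6 lines go up from Mki67-low to Mki67-high, whereas for Smo and Sufu 4 go up and 2 go down.

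Of the GLI factors, Gli1 (chromosome 10, 127329882 to 127341974, minus strand) had at least 5 counts in 9 of 32 Mki67-high cells (28.1%, Wilson 95% interval 15.6 to 45.4) and in 2 of 75 Mki67-low cells (2.67%, 0.734 to 9.21). The share was higher in 5 of 6 library groups and lower in group 4, with a mean difference of 28.9 ± 27.1 points (SD, n = 6 groups, exact two-sided sign-flip test, p = 0.0625, adjusted p = 0.5595). One of the 2 Mki67-low cells held 494.7 CPM, the highest Gli1 level of all cells. That cell also had 3 of 6 progenitor genes at 50 CPM or more. With 1 count Gli1 was found in 10 and 8 cells, higher in 5 of 6 groups (exact two-sided sign-flip test, p = 0.09375). In the sums, Gli1 had a log2 fold change of 1.46 with a SE of 2.21 (adjusted p = 0.913 in edgeR). It was 0.32 without library group 6, 4.50 with limma-voom and 5.17 with library groups as a block. Exons of Gli1 overlap Arhgap9 and Gm47200 on the other strand.

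Gli2 (chromosome 1, 118834132 to 119053619, minus strand) had at least 5 counts in 13 Mki67-high and 11 Mki67-low cells, higher in 5 of 6 groups by 25.7 ± 23.3 points (SD, n = 6 groups, exact two-sided sign-flip test, p = 0.09375, adjusted p = 0.6087). Its sums ran from 0.0658 to 781 CPM (median 87.7) against 0.0754 to 78.6 CPM (median 7.45), with a log2 fold change of 3.02 (SE 1.65, adjusted p = 0.715 in edgeR). The highest level of any of these genes in a cell was that of Gli2 in 1 Mki67-high cell of library group 1, at 5852 CPM, and without it the value was 2.46. It was 2.43 without library group 1 and 4.51 without group 5. With 1 count Gli2 was found in 20 and 28 cells and Gli3 in 13 and 12, each higher in 5 of 6 groups (exact two-sided sign-flip tests, p = 0.0625). Gli3 (chromosome 13, 15463235 to 15730026, plus strand) had at least 5 counts in 7 Mki67-high cells (21.9%, Wilson 95% interval 11.02 to 38.8) and 2 Mki67-low cells (2.67%, 0.734 to 9.21). The difference was 20.1 ± 11.9 points, higher in 5 of 6 groups and with none in either class in group 4 (SD, n = 6 groups, exact two-sided sign-flip test, p = 0.0625, adjusted p = 0.5595). Exons of Gli3 overlap the gene Gm6556 on the other strand. The log2 fold change of Gli3 was 3.61 (SE 2.39, adjusted p = 0.764 in edgeR), and it was 2.38 without library group 3 and 2.99 without group 1. It was 9.95 in edgeR with library groups as a block (adjusted p = 0.395) and 7.34 with limma-voom (adjusted p = 0.265). Of the 10 cells with at least 5 Gli3 counts, 4 carried astroglial genes, and 2 of these held 2090 and 1037 CPM. Without cells carrying genes of other cell types or of unusual depth, Gli3 had 5 counts in 4 of 27 Mki67-high and 1 of 63 Mki67-low cells, higher in 4 of 6 groups.

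Sufu (chromosome 19, 46396896 to 46488804, plus strand) was found about as often in both classes, with a count in 19 of 32 Mki67-high cells (59.4%, Wilson 95% interval 42.3 to 74.5) and in 42 of 75 Mki67-low cells (56.0%, 44.7 to 66.7). The difference per library group was 2.45 ± 27.4 points (SD, n = 6 groups, exact two-sided sign-flip test, p = 0.84375). Sufu sums ran from 0.150 to 95.2 CPM (median 15.2) in Mki67-high and from 1.81 to 525 CPM (median 219) in Mki67-low cells, lower in Mki67-high cells in 5 of 6 groups. The log2 fold change was -3.17 (SE 1.3, unadjusted p = 0.0264 and adjusted p = 0.635 in edgeR). Without the Mki67-low cell with the most Sufu (3372 CPM), it was -2.48 (SE 1.44, adjusted p = 0.758 in edgeR), and with 50 CPM of Mki67 set against no count it was -0.75. Without library group 5 it was -2.56, and without group 4 it was -3.77. Above 100 CPM were 11 Mki67-low and 3 Mki67-high cells.

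At the limit of 0.01 on the adjusted p, edgeR called 0 of the 8 genes, and 1 (Sufu) had an unadjusted p-value under 0.05. Over all 9084 genes tested, 2 were called (0.022%), Cdc20 and Tacc3, which were named after their values were seen. An unadjusted p-value under 0.05 was found for 267 genes higher (2.94%) and 399 lower (4.39%) in Mki67-high cells. DESeq2 on the same sums called 267 genes higher (2.12%) and 109 lower (0.866%), none of them among the 8. The log2 fold change was positive for 6 of the 8, with a median of 1.43 against -0.18 over all genes. The biological coefficient of variation of the sums was 172%.

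The shares of Ptch1, Boc and Gas1 were also compared at equal depth and without the cells that carried genes of other types. With every cell thinned to 1000000 counts (1 shallower cell left out), they had at least 5 counts in 16, 10 and 12 Mki67-high and in 18, 7 and 7 Mki67-low cells, higher in 6 of 6 library groups. Higher in all groups under this setting were 4.5% of all genes. Without cells carrying genes of other cell types or of unusual depth, they had 5 counts in 15, 10 and 9 of 27 Mki67-high and in 16, 9 and 8 of 63 Mki67-low cells, higher in 6 of 6 groups (3.79% of all genes). Both settings were added after the values were seen.

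**Figure D3:**
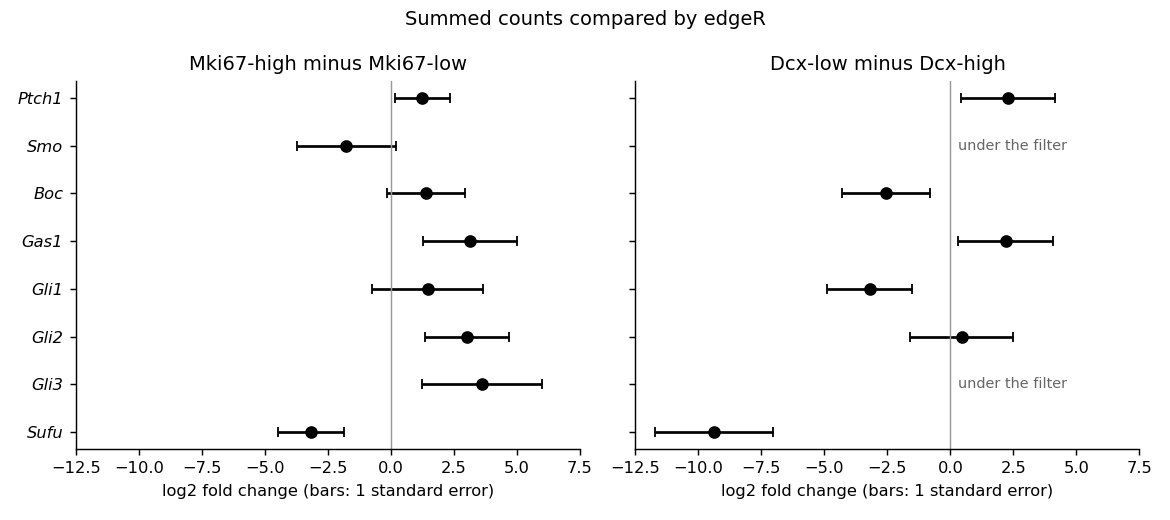
Log2 fold change of the summed counts in edgeR (x axis, bars are 1 standard error) for each gene (y axis) between Mki67 classes (left) and between Dcx classes (right). Positive values are higher in Mki67-high or in Dcx-low cells; Sufu is the lowest in both, at -3.17 and -9.40, and Smo and Gli3 were not tested between Dcx classes.

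The second comparison asked how the same genes differ with Dcx, a marker of cells that have begun to differentiate. The Dcx classes did not part Mki67-high from Mki67-low cells, as 19 of the 32 Mki67-high cells were Dcx-high. Sufu had no Dcx-low cell at 5 counts or more, while Ptch1 and Gas1 were found at that level in 4 of the 9 Dcx-low cells each. Smo at 5 counts was also absent from the Dcx-low cells. The Dcx-low class was mixed. One of its cells, in library group 5, carried 7 of 12 astroglial genes at 50 CPM or more. Another of group 5 and the cell of group 6 carried 4 and 3 of 7 oligodendrocyte lineage genes, with summed levels of 14030 and 7140 CPM, against a median of 70.4 CPM over Dcx-low cells. The part of these genes in the differences was not tested beyond the values without those cells.

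At 5 counts Sufu was found in 0 of 9 Dcx-low cells (a count of 0 allows up to 33.3%) and in 29 of 83 Dcx-high cells (34.9%, Wilson 95% interval 25.6 to 45.7). Its sums ran from 0 to 0.372 CPM (median 0.0373) in Dcx-low and from 2.18 to 317 CPM (median 138) in Dcx-high cells. The classes did not overlap, as was the case for 9.48% of all genes with lower sums in Dcx-low cells. At 5 counts the difference in share was -34.2 ± 8.95 points, lower in 6 of 6 groups (SD, n = 6 groups, exact two-sided sign-flip test, p = 0.03125, and 0.5836 after adjustment over 14446 genes), as found for 4.23% of all genes. The log2 fold change was -9.40 (SE 2.34, adjusted p = 0.0192 in edgeR), above the limit of 0.01. DESeq2 on the same sums gave -8.68 (adjusted p = 3.251e-08), limma-voom -8.22 (adjusted p = 0.000326), and edgeR with library groups as a block -9.94 (adjusted p = 0.00989). These fits called 11.5%, 13.4% and 4.85% of all genes as lower in Dcx-low cells. Over all 16 alternatives the value of Sufu ran from -10.8 to -8.22, and its adjusted p in edgeR reached 0.152 with sums over at least 2 cells. The median over all genes was -0.32, but -5.36 with the block and -3.36 with limma-voom.

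Above the lower limit Sufu showed little relation to Dcx. Cells between the limits had at least 5 Sufu counts in 7 of 17 (41.2%, Wilson 95% interval 21.6 to 64.0), a share no lower than that of Dcx-high cells. Over all 109 cells, the Spearman correlation of Sufu with Dcx was -0.04 as log2(CPM + 1). In the 6 Dcx-low cells under the limits for genes of other types, Sufu was 0, 0, 0, 0, 0.174 and 0.193 CPM. These cells were not free of such genes. The cell of group 4 held 592.6 CPM of oligodendrocyte lineage and 554.7 CPM of astroglial genes. That of group 3 held 507.9 CPM of Purkinje cell genes, for which no limit was set.

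In Dcx-low cells Ptch1 and Gas1 were high together. Ptch1 had 79.4, 640.6, 126 and 60.7 CPM in 4 cells of library groups 1, 2, 3 and 4, and these same cells had 50.5, 41.2, 189 and 148 CPM of Gas1. The other 5 Dcx-low cells had at most 0.901 CPM of Ptch1 and 0.226 CPM of Gas1. Of these 5, 3 were the cells over the limits for glial genes. Over the class, Ptch1 had at least 5 counts in 4 of 9 Dcx-low (44.4%, Wilson 95% interval 18.9 to 73.3) and 27 of 83 Dcx-high cells (32.5%, 23.4 to 43.2). Its share was higher in 4 of 6 groups (exact two-sided sign-flip test, n = 6 groups, p = 0.21875), and its log2 fold change was 2.28 (SE 1.86, adjusted p = 0.587 in edgeR). This value was 0.69 without library group 2, whose single Dcx-low cell is the one with 640.6 CPM, and Ptch1 sums were higher in Dcx-low cells in 2 of 6 groups and lower in 4. Gas1 had at least 5 counts in 4 of 9 and 16 of 83 cells (19.3%, 12.2 to 29.0), with a log2 fold change of 2.19 (SE 1.89, adjusted p = 0.613 in edgeR) that was 1.34 without library group 3. Without cells carrying genes of other types or of unusual depth, both were found in 4 of 6 Dcx-low cells, against 21 and 12 of 69 Dcx-high cells. Only 4 library groups then remained, and both shares were higher in 4 of 4, as were those of 1.74% of all genes. With 4 groups the exact sign-flip test cannot go below p = 0.125.

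**Figure D4:**
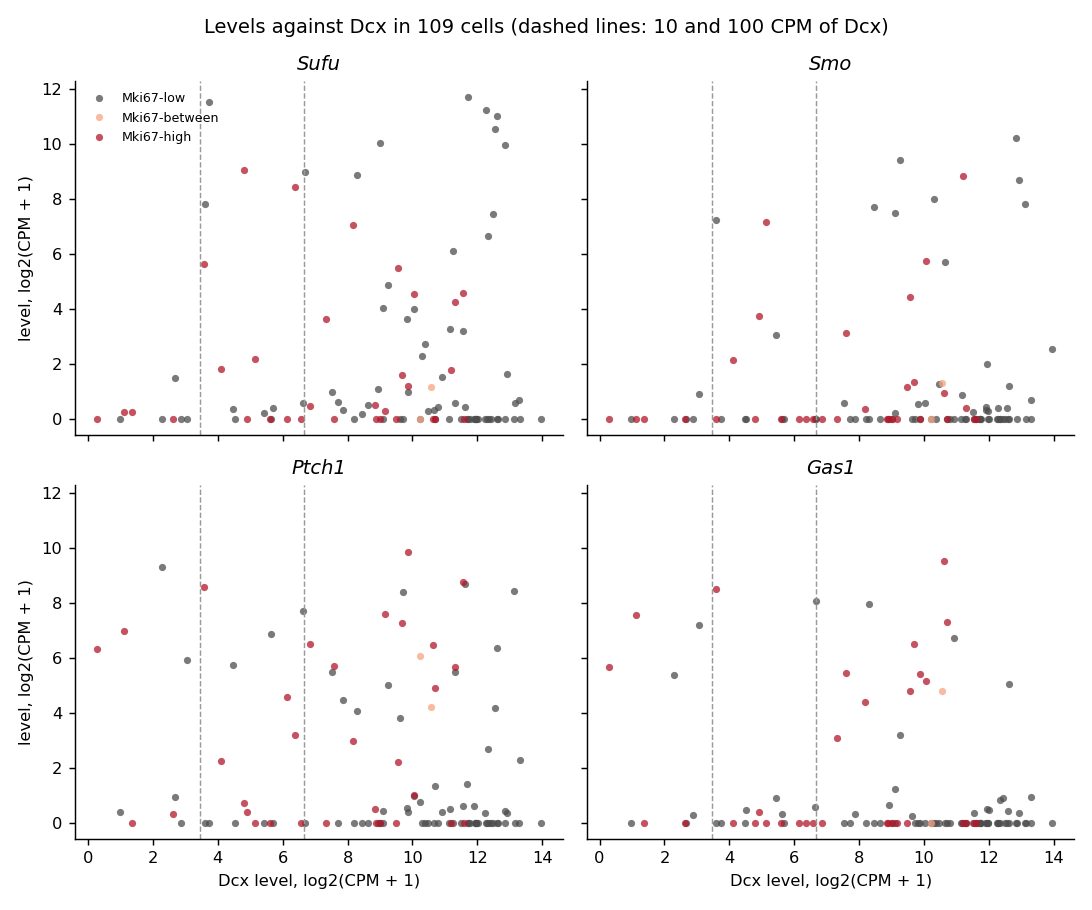
Level of Sufu, Smo, Ptch1 and Gas1 (y axes) against the level of Dcx (x axis), both as log2(CPM + 1), in 109 cells coloured by Mki67 class. Dashed lines mark 10 and 100 CPM of Dcx; left of the first line no cell has 5 or more counts of Sufu or Smo, while Ptch1 and Gas1 each have 4 such cells.

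Of the remaining genes, the sums of Smo and Gli1 were lower in Dcx-low cells in 6 of 6 library groups, as were those of 21.9% of the genes tested, and the sums of Boc and Gli2 were lower in 5 of 6. Smo had a count in 1 of 9 Dcx-low and 34 of 83 Dcx-high cells, and at least 5 counts in 0 of 9 (up to 33.3%) and 17 of 83 (20.5%, Wilson 95% interval 13.2 to 30.4). Its share at 5 counts was lower in 5 of 6 groups by 20.4 points (exact two-sided sign-flip test, n = 6 groups, p = 0.0625), and DESeq2 called it while it was under the filter of edgeR. Boc had 5 counts in 1 of 9 and 18 of 83 cells, with a log2 fold change of -2.56 (SE 1.77, adjusted p = 0.494 in edgeR) that was -5.92 without library group 2. Gli1 had them in 1 of 9 and 8 of 83, with -3.21 (SE 1.68, adjusted p = 0.319 in edgeR), and -1.89 without library group 2. Gli2 had them in 2 of 9 and 18 of 83, with 0.44 (SE 2.03, adjusted p = 0.942 in edgeR), and its value was -4.85 without library group 3 and 2.38 without group 2. Gli3 was found in 1 Dcx-low cell, at 1109 CPM, which was the cell of library group 3 with 249 CPM of Gli2, 189 CPM of Gas1 and 126 CPM of Ptch1.

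Between Dcx classes, edgeR's calls at the limit of 0.01 were 0 of 7670 genes (0%), and 0 of the 6 hedgehog genes that passed the filter. At an unadjusted p-value under 0.05 it found 120 genes higher (1.56%) and 1331 lower (17.4%) in Dcx-low cells, among them Sufu, and DESeq2 called 83 higher (0.677%) and 1409 lower. Sums of Dcx-low cells held 2323570 to 13402423 counts, against 43479524 to 58241726 for Dcx-high cells.

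The study divided GCPs by Notch2, and the same split was made in the Mki67-high cells, with no test as the library groups hold few cells of each kind. Of 32 cells, 20 had a Notch2 count and 12 had none, at 2 to 4 and 0 to 4 cells per library group. Boc had at least 5 counts in 13 of 20 Notch2-positive (65.0%, Wilson 95% interval 43.3 to 81.9) and 1 of 12 Notch2-negative cells (8.33%, 1.49 to 35.4). Gas1 was found at 5 counts in 10 and 2, Gli1 in 8 and 1, Gli3 in 7 and 0 (up to 25.0%) and Gli2 in 10 and 3 of these cells. Ptch1 was found in 10 and 8 of them, Smo in 6 and 2, and Sufu in 8 and 4. Notch2-positive cells had more detected genes (median 5180 against 4380). Over all genes, 37.1% of their values were above 0, against 28.7% in Notch2-negative cells. The share of all genes with a difference like these was not computed. Notch2-positive cells included 3 cells carrying astroglial genes, while the Notch2-negative cells included none. Without cells carrying genes of other types or of unusual depth, Boc had 5 counts in 9 of 16 and 1 of 11 cells, Gli1 in 5 and 1, Gas1 in 7 and 2, Gli2 in 7 and 3, and Gli3 in 4 and 0. Smo was then found in 3 and 2, Ptch1 in 7 and 8, and Sufu in 4 and 4, so that the share of Sufu was lower in the Notch2-positive cells.

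**Figure D5:**
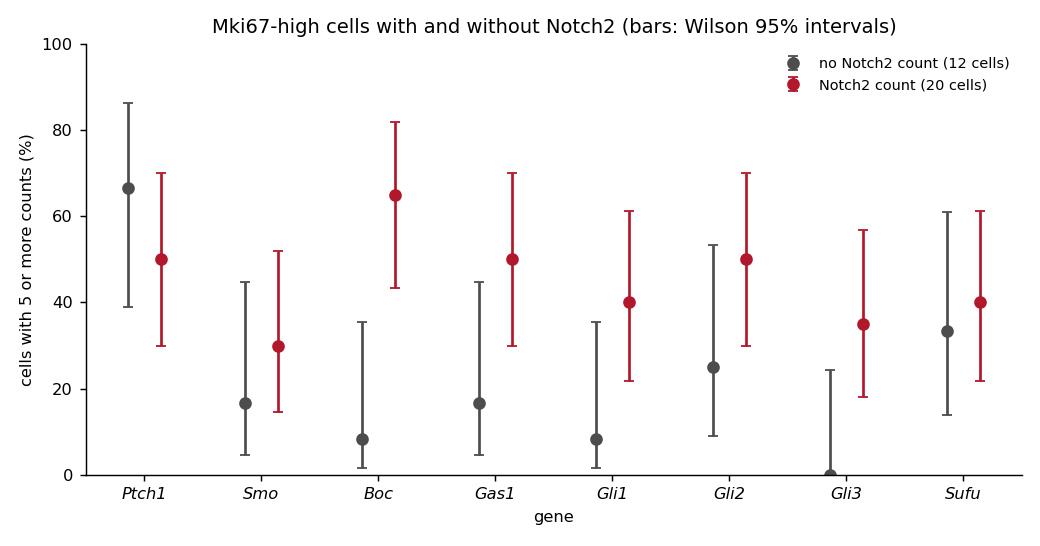
Percentage of Mki67-high cells with 5 or more counts (y axis) of each gene (x axis) in the 20 cells with and the 12 cells without a Notch2 count, with Wilson 95% intervals as bars. The bars take cells as independent and leave out the spread between library groups. Boc shows the widest gap, 65.0% against 8.33%, and Ptch1 is the gene with a lower share in the Notch2-positive cells.

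Cells with Gli1 often held the other genes as well. Of the 12 cells with at least 5 Gli1 counts, 10 had at least 5 counts of Gas1 (83.3%), against 12 of the other 97 cells (12.4%). Boc had 5 counts in 9 of these 12 cells and in 15 of the 97 (15.5%), Ptch1 in 9 and in 29 (29.9%), and Gli3 in 8 and in 2 (2.06%). Among the 12 cells were 3 that carried astroglial genes. These had 13533, 12684 and 6420 detected genes, against a median of 4312 over all 109 cells. Those with 13533 and 12684, both of unusual depth, had at least 5 counts of every hedgehog gene analysed here. How many of all genes were more frequent in the 12 cells was not computed. The part of gene-rich cells in these shares was not tested. Mki67 had at least 5 counts in 11 of the 12 and Atoh1, the transcription factor of the GCP lineage, in 6, against 36 and 5 of the other 97. Sufu had 5 counts in 7 of the 12 and 29 of the 97 cells, Gli2 in 7 and 18, and Smo in 6 and 16.

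As rank correlations of log2(CPM + 1) over the 109 cells, which share library groups and differ in depth, the highest pairs were Ptch1 with Gli2 (0.39, both in 36 cells), Ptch1 with Gas1 (0.34), Gas1 with Gli1 (0.33) and Gli1 with Gli3 (0.32). Those of Sufu with the other 7 lay between 0.05 and 0.16. Atoh1 was correlated with Gas1 at 0.54 over all cells and at 0.55 over the 75 Mki67-low cells. With Dcx, Ptch1 (-0.19), Gas1 (-0.18) and Boc (-0.17) had the lowest values and Smo (0.12) the highest.

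Among 8170 genes found in at least 20% of the cells, those most like each hedgehog gene by the same rank correlation, up to 3 for each, were as follows. For Ptch1 they were Foxm1 (0.47), a transcription factor of the cell cycle, Mier1 (0.44) and Ing5 (0.42). For Gli3 they were Cdk2 (0.51), Tipin (0.51) and Pcna (0.49), genes of DNA replication and the cell cycle. Gli2 had Pola2 (0.48), a subunit of DNA polymerase alpha, Gm13436 (0.44) and Ccnd2 (0.43), encoding cyclin D2. Gas1 had Siva1 (0.50), 2310008H04Rik (0.48) and Col18a1 (0.47), and Boc had Ptprg (0.44), Prpf3 (0.42) and Pet100 (0.41). For Smo, Mest (0.43) and Def8 (0.42) were among the 3 highest. Sufu had Ago1 (0.44), Mfsd5 (0.42) and Snrnp200 (0.40). Gli1, in fewer than 20% of cells, was not ranked.

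Other genes of the pathway came from a list of 53 symbols, of which 46 had a row and 32 were tested between Mki67 classes. None was called and 1 had an unadjusted p-value under 0.05, while 22 of the 32 had a positive log2 fold change, with a median of 0.37 against -0.18 over all genes. Of the ligands Shh, Ihh and Dhh none had a row. On the receptor side, Gpc3, a glypican that binds hedgehog proteins, had a count in 25 of 32 Mki67-high and 25 of 75 Mki67-low cells, with sums of 49.4 ± 22.0 CPM against 7.18 ± 10.6 CPM (SD, n = 6 sums), higher in 6 of 6 groups. In edgeR Gpc3 had 2.81 on the log2 scale (SE 1.43, adjusted p = 0.695). Hhat, the acyltransferase that palmitoylates the ligand, had -3.19 (SE 1.94), the one ligand release gene tested.

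Genes that control SMO or the cilium had lower values in Mki67-high cells for 3 of 4 tested. Tulp3, a ciliary transport protein, had a log2 fold change of -2.93 (SE 1.89, adjusted p = 0.759 in edgeR). Mgrn1, a ubiquitin ligase that acts on SMO, had 25.1 ± 19.6 CPM against 126.7 ± 54.2 CPM (SD, n = 6 sums) and was lower in 6 of 6 groups, as were 3.2% of all genes, with -2.28 (SE 1.2, adjusted p = 0.705 in edgeR). Of 16 tested genes that process GLI proteins, 11 had positive values, and those with the smallest p-values were the kinase gene Gsk3b (-0.47, SE 0.32) and the ubiquitin ligase scaffold Cul3 (-1.28, SE 0.86). All 9 tested targets had positive values, with a median of 0.65 against -0.18 over all genes. Some were near 0, such as Cdk6 (0.04, SE 0.78). The targets include cell cycle genes such as Ccnd2, and Mki67 set the classes. The part of the pathway in these values was not tested. Ccnd2 had 3389 ± 884 CPM against 1795 ± 882 CPM over 6 sums (SD), which was 0.89 on the log2 scale (SE 0.38, adjusted p = 0.652 in edgeR), higher in 5 of 6 groups. Sfrp1, a secreted WNT inhibitor, had 1.30 (SE 0.63, adjusted p = 0.677 in edgeR).

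Between Dcx classes 27 genes of the list were tested, none was called, and 4 had an unadjusted p-value under 0.05, all lower in Dcx-low cells, where 17.4% of all genes tested were lower by the same measure. Among them were Atoh1 (-9.55, SE 2.13, adjusted p = 0.0185 in edgeR), the kinase gene Stk36 (-8.90, SE 2.32, adjusted p = 0.0221) and the adaptor gene Numb (-7.93, SE 2.13, adjusted p = 0.0242). Their counts were found in 1, 2 and 4 of the 9 Dcx-low and in 16, 17 and 26 of the 83 Dcx-high cells. Next in their roles came Gpc3 (1.76, SE 1.74), Tulp3 (-4.12, SE 2.02), Efcab7 (4.92, SE 2.46) and Ccnd2 (1.19, SE 1.06), with adjusted p-values in edgeR from 0.272 to 0.665.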

How the data were processed

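Single cells from P7 mouse cerebella were profiled by Smart-seq on C1 chips. The authors aligned reads to mm10 and deposited raw counts per gene and cell, without normalization. The submitters' processing notes name STAR 2.4.1d and HTSeq 0.6.1. Annotation and strand setting are not given in the sources used here. Listed genes have a count in at least 3 cells, so a gene seen in fewer has no row. Each cell is a sample in the labels, and the number in its title gave the library group. Whether these groups are the study's batches is not stated, so p-values measure the spread between library groups, which may be technical.

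Counts were divided by the cell's total to give CPM. Within each library group the counts of a class were added up, and these sums were compared with edgeR 4.0.16 (R 4.3.3; filterByExpr, TMM, quasi-likelihood test, Benjamini-Hochberg adjustment), calling adjusted p under 0.01. Shares of cells with a count were compared by exact two-sided sign-flip tests over the 6 library groups, for every gene and adjusted over all. DESeq2 1.42.0 and limma 3.58.1 (voom) were alternatives. Only the edgeR fit of the Mki67 sums was run on simulated data, with noise set below that of the real sums. The Dcx sums, the sign-flip tests, DESeq2 and limma-voom were not simulated. Positions are from GENCODE M21 on GRCm38, and promoters from RefSeq. Mki67 and Dcx set the classes and were not tested in their own comparison. The members, classes and gene lists were chosen with earlier results of these data known. All 9 members were named, as were from the pathway list the genes called and up to 2 per role with the smallest p in each comparison, and the 3 genes most correlated with each member found in at least 20% of cells. Some genes that this rule names are not reported here. Several alternatives were chosen after seeing the data, namely fits without the cell with the highest level of a gene, shares without cells of unusual depth or with genes of other cell types, 5 counts in thinned cells, and the inner motif.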

Additional observations from a re-analysis of the deposited data

Results flagged for a closer look

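For the sums per class and library group, 32 sets of 6 were checked on the log2(CPM + 1) scale. In 8 of them a value lay far from the other 5. The limit used gives about 1 in 20 by chance for normally distributed values only. Many of these sums are 0 or stand for a single cell, so no chance rate is known for them. Among Mki67-low sums, library group 2 stood high for Gli1 (66.8 CPM, others 0 to 0.252 CPM) and for Gli3 (83.2 CPM, others 0 to 0.232 CPM), and the highest Gli1 cell and a cell with astroglial genes and 1037 CPM of Gli3 belong to it. Library group 6 stood low for Sufu, with 1.81 CPM in Mki67-low cells (others 128 to 525 CPM) and 2.18 CPM in Dcx-high cells (others 90.9 to 317 CPM). Among Dcx-low sums, which hold 1 cell in 4 of 6 groups, the high ones were Smo in group 4 (0.861 CPM, others 0), Boc in group 2 (22.4 CPM, others 0 to 1.29 CPM), Gli1 in group 4 (3.87 CPM, others 0) and Gli3 in group 3 (1109 CPM, others 0). Smo and Gli1 there are single cells with 2 and 9 counts. The causes were not tested.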

How the results depend on the processing

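The number of genes called between Mki67 classes was 2, and became 6 at an adjusted p under 0.05, 6 with limma-voom, 376 with DESeq2, 1 without cells carrying astroglial genes, 1 without cells of unusual depth, and 0 with library groups as a replicate block, with 50 CPM of Mki67 against no count, or with Top2a in place of Mki67. Each library group left out in turn gave 0 to 1. Between Dcx classes the number was 0, and became 655 at an adjusted p under 0.05, 372 with the replicate block, 1492 with DESeq2 and 1026 with limma-voom, and it was 0 with each group left out. Both classes of a library group deviated together only weakly (correlation 0.04 to 0.13, not over 0.1 in every group), so the main edgeR fit took no block as pairing. The sign-flip tests of shares, in contrast, used the difference between classes within each library group. The median log2 fold change of all genes between Dcx classes moved from -0.32 to -5.36 under the block and -3.36 with limma-voom, so that its lower values there count against that shift. Of 218 alternative log2 fold changes of members, 203 kept direction and side, 4 (Sufu between Dcx classes) passed the threshold, at -9.40 (adjusted p under 0.05), -9.94 (block), -8.68 (DESeq2) and -8.22 (limma-voom), and 11 changed sign. Between Mki67 classes these were Smo and Boc without library group 4 (0.29 and -0.084). Between Dcx classes they were Ptch1 (-0.52 with the block, -1.05 with sums of at least 2 cells), Gas1 (-0.98 with sums of at least 2 cells) and Gli2 (-0.058 without a filter, -4.07 with the block, -2.14 with limma-voom, -4.85 without library group 3, -7.22 with sums of at least 2 cells, -3.31 in Mki67-low cells). Leaving out each group gave, between Mki67 classes, Smo -2.47 to 0.29 and Boc -0.08 to 3.59, and between Dcx classes Gli2 -4.85 to 2.38. Of 224 alternative differences in share, 28 changed sign. Between Mki67 classes these were Smo (-1.65 points without astroglial cells, -5.50 to 6.81 with groups left out) and Sufu (-0.70 without astroglial cells, -1.78 without cells of unusual depth, -2.19 at 5 counts without cells with genes of other types, -3.73 to 10.27 with groups left out). Between Dcx classes they were Boc (-4.72 at 5 counts, -2.15 also without astroglial cells or unusual depth), Gli1 (6.97 at 5 counts, 6.71 thinned, 1.16 without astroglial cells, 0.15 without cells of unusual depth, 10.2 at 5 counts without both, 14.2 at 5 counts without other types, -20.90 to 3.56 with groups left out) and Gli3 (8.09 at 5 counts, 7.04 at 10 CPM, 2.38 thinned, 12.7 at 5 counts without astroglial cells or unusual depth, 18.4 without other types, 8.02 at 5 thinned counts). The causes were not tested. Dcx with no count could not be compared, as every cell had one. The Dcx-low class is limited by its number of cells, as 0 of 9 allows a share of up to 33.3%.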
